A study of Mus musculus with 12 samples.

Results

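The BCL2 family decides whether a cell under stress permeabilizes the outer mitochondrial membrane and dies by apoptosis. Survival proteins (BCL2, BCL-XL, MCL1) hold the pore-forming effectors BAX and BAK in check, and BH3-only proteins (BID, BAD, BIM, BMF, BIK) sense stress and relieve that restraint or activate the effectors directly. In the kidney, loss of tubular epithelial cells by this route is a known part of acute and chronic injury. The 10 genes Bcl2, Bcl2l1 (BCL-XL), Mcl1, Bax, Bak1 (BAK), Bid, Bad, Bcl2l11 (BIM), Bmf and Bik were taken by name from the 15802 genes listed for all libraries. All 10 were among the 11707 genes with enough counts to test.

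The genes were measured by RNA sequencing in mTEC, a mouse renal tubular epithelial cell line. Cells with the fumarate hydratase gene Fh1 silenced and given TGF-β1 (KD+TGF-β1), control cells given TGF-β1 (NC+TGF-β1), silenced cells without it (KD) and control cells without it (NC) were each sequenced as 3 libraries. TGF-β1 is a cytokine that drives fibrotic change, and the study asks how fumarate hydratase, an enzyme of the tricarboxylic acid cycle, bears on renal fibrosis. The labels state neither the silencing reagent, nor the dose or length of TGF-β1, nor whether the libraries of a group are separate cultures, so p-values measure the spread between these libraries, which may be technical.

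Library totals ran from 17651213 to 18462872 estimated counts. Fh1 stood at 15.01, 13.72 and 13.80 CPM (counts scaled to library size, TMM-adjusted) in KD+TGF-β1 libraries, against 49.6, 49.7 and 49.4 CPM in NC+TGF-β1 libraries. It stood at 28.6, 31.3 and 29.7 CPM in KD libraries, against 51.4, 53.9 and 53.5 CPM in NC libraries. Silencing was therefore deeper by transcript level in the TGF-β1 libraries, with a log2 change of -1.81 there (SE 0.05, edgeR adjusted p = 8.95e-11) and -0.83 in basal cells (SE 0.05, adjusted p = 6.47e-07). All 9 tubular epithelial markers were detected in every group, and their summed counts were 101470 to 104458 in KD+TGF-β1, 95712 to 97240 in NC+TGF-β1, 72382 to 76289 in KD and 67282 to 72187 in NC libraries. Summed fibroblast markers (9 genes) reached 131 to 160 counts in KD+TGF-β1, 111 to 148 in NC+TGF-β1, 17 to 27 in KD and 13 to 28 in NC libraries, with Lum at 0 in all groups. Summed endothelial markers (5 genes) reached 57 to 71, 49 to 64, 10 to 14 and 11 to 21 counts in the same order of groups, with Tie1 at 0 throughout. Summed leukocyte markers (6 genes) reached 441 to 510, 545 to 608, 984 to 1046 and 1026 to 1081 counts in that order, with Adgre1 at 0 in both silenced groups. Markers of pluripotent cells (9 genes) held 328 counts in KD+TGF-β1 library 1 and 0 in the other 11 libraries. These 9 genes were taken from an earlier account of the same data, so this contrast is a description and not an independent check. NC library 1 stood apart from its replicates. The part of any of these in the results was not tested, and where leaving out either library changed the call of a member, the value without it is given. In such bulk libraries, fewer cells of a type and less RNA per cell cannot be told apart. Libraries with TGF-β1 and without it were deposited in separate tables, so any effect of the table or of the experiment behind it cannot be told apart from that of TGF-β1.

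Per length, the family was dominated by 1 effector and 1 survival gene in all groups. Bax, whose product forms pores in the mitochondrial membrane, averaged 559 ± 8.37 TPM (transcript abundance scaled for length and library) in KD+TGF-β1, 545 ± 4.64 in NC+TGF-β1, 521 ± 6.96 in KD and 521 ± 1.39 in NC libraries (SD, n = 3 each). Bcl2l1, which encodes the survival protein BCL-XL, averaged 353 ± 6.84, 348 ± 10.95, 416 ± 4.68 and 420 ± 8.53 TPM in the same order of groups (SD, n = 3 each). Their means over the 12 libraries lay above those of 97.8% and 96.8% of the genes tested. Bad, Bid, Mcl1 and Bak1 followed, with group means of 65.8 to 93.9 TPM and an order that changed between groups. In NC libraries, Bad and Bid overlapped, as did Bid and Mcl1, and Bak1 was lowest of these at 65.8 ± 2.97 TPM. In KD+TGF-β1 libraries, Mcl1 and Bak1 overlapped at the top of these, at 93.9 ± 1.36 and 91.2 ± 3.77 TPM, and Bid was lowest at 66.1 ± 1.35 TPM (SD, n = 3 each). Bcl2l11 came next at 22.9 to 27.0 TPM by group, then Bcl2 at 12.4 to 13.3, Bik at 4.56 to 6.10 and Bmf at 0.0933 to 0.687 TPM. The libraries of each of these 4 genes and of the next lower one did not overlap in any group. Bcl2, the founding survival gene, thus had a lower level per length than Bcl2l1 and Mcl1 in all 12 libraries.

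**Figure D1:**
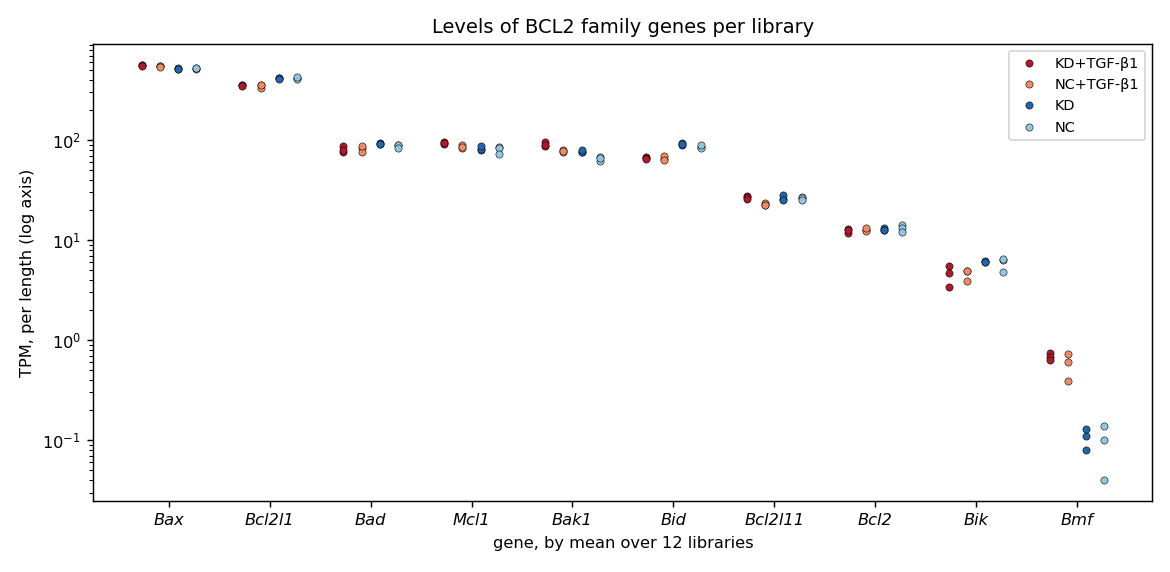
TPM of each of the 10 genes (log axis) in the 12 libraries, 1 point per library, coloured by group and ordered by the mean over all libraries. Bax and Bcl2l1 lie highest in every library, 4 genes share the range from 62.4 to 95.4 TPM, and Bmf is lowest.

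With Fh1 silencing, the only member called higher in both settings was Bak1, the second pore-forming effector. In basal cells 1 gene of the 10 was called higher and 0 lower, against a background of 3.66% of all genes tested (1.44% higher and 2.22% lower; 169 and 260 genes). Of those called genes, 39.4% were higher, against 53.8% when limma was run on log2(TPM + 1). With TGF-β1 present, 2 of the 10 were called higher and 0 lower, against 11.4% of all genes (5.42% higher and 6.02% lower). With only 10 genes, the number of members called in either setting is not a result about the family. A gene was called at a Benjamini-Hochberg adjusted p under 0.05 in edgeR's quasi-likelihood test across the genes tested. The members' median log2 change was 0.04 in basal cells and 0.02 with TGF-β1, against -0.01 and 0.00 over all genes tested.

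Bak1 measured 85.6, 85.4 and 89.0 CPM in KD libraries, against 77.0, 70.1 and 76.7 CPM in NC libraries. With TGF-β1 it measured 98.5, 107.7 and 101.4 CPM in KD+TGF-β1 libraries, against 84.8, 91.6 and 86.8 CPM in NC+TGF-β1 libraries. All silenced libraries were above all their controls in both settings, and the KD and NC+TGF-β1 libraries lay in the same range. In basal cells Bak1 rose by 1.16-fold in KD over NC (95% interval 1.077 to 1.252; log2 0.22, SE 0.05, edgeR adjusted p = 0.0197). With TGF-β1 it rose by 1.17-fold (interval 1.085 to 1.258; log2 0.22, SE 0.05, edgeR adjusted p = 0.00675). The basal call was lost when only KD and NC libraries were fitted (edgeR adjusted p = 0.0665), and without NC replicate 2 (0.0899) or KD replicate 1 (0.0644), 2 (0.0588) or 3 (0.0896). Without NC replicate 1 the basal log2 change was 0.24 (adjusted p = 0.00891), and without KD+TGF-β1 replicate 1 that with TGF-β1 was 0.25 (adjusted p = 0.0108).

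Bcl2l11 encodes BIM, a BH3-only protein that binds every survival member and can activate the effectors. It measured 80.3, 80.6 and 75.5 CPM in KD+TGF-β1 libraries, against 69.4, 68.1 and 66.5 CPM in NC+TGF-β1 libraries. In basal cells it measured 76.8, 82.2 and 75.6 CPM in KD libraries, against 78.4, 77.7 and 76.1 CPM in NC libraries. The silenced libraries were all above their controls with TGF-β1 and overlapped with them in basal cells, and the NC+TGF-β1 libraries were the lowest of the 12. With TGF-β1, Bcl2l11 rose by 1.16-fold in KD over NC cells (95% interval 1.085 to 1.237; log2 0.21, SE 0.04, edgeR adjusted p = 0.00442). In basal cells its log2 change was 0.01 (SE 0.04, interval of the fold 0.947 to 1.08, edgeR adjusted p = 0.902). The difference between these changes, tested as the interaction of silencing and TGF-β1, was 0.20 on the log2 scale (SE 0.06, edgeR adjusted p = 0.165) and did not pass the threshold. Silencing of Fh1 was also deeper with TGF-β1, and the part of that depth in this difference cannot be told apart. The call with TGF-β1 held without KD+TGF-β1 replicate 1 (log2 0.20, edgeR adjusted p = 0.0226).

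The other 8 members were not called between silenced and control cells in either setting. Mcl1, which encodes a short-lived survival protein, had 3412, 3518 and 3479 estimated counts in KD+TGF-β1 libraries, against 3279, 3155 and 3109 in NC+TGF-β1 libraries. These libraries did not overlap, but the log2 change of 0.13 (SE 0.05) did not pass the threshold (edgeR adjusted p = 0.125). With only these groups in the fit it passed (edgeR adjusted p = 0.0102). For Bcl2, Bcl2l1, Bax, Bid and Bad, log2 changes with silencing lay between -0.10 and 0.06 in both settings. The 95% interval of the fold for Bax was 0.979 to 1.07 in KD+TGF-β1 over NC+TGF-β1 cells and 0.947 to 1.03 in KD over NC cells. Bmf and Bik were too low for such narrow intervals: for Bmf the interval in KD over NC cells ran from 0.519 to 2.72, and for Bik from 0.781 to 1.343.

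**Figure D2:**
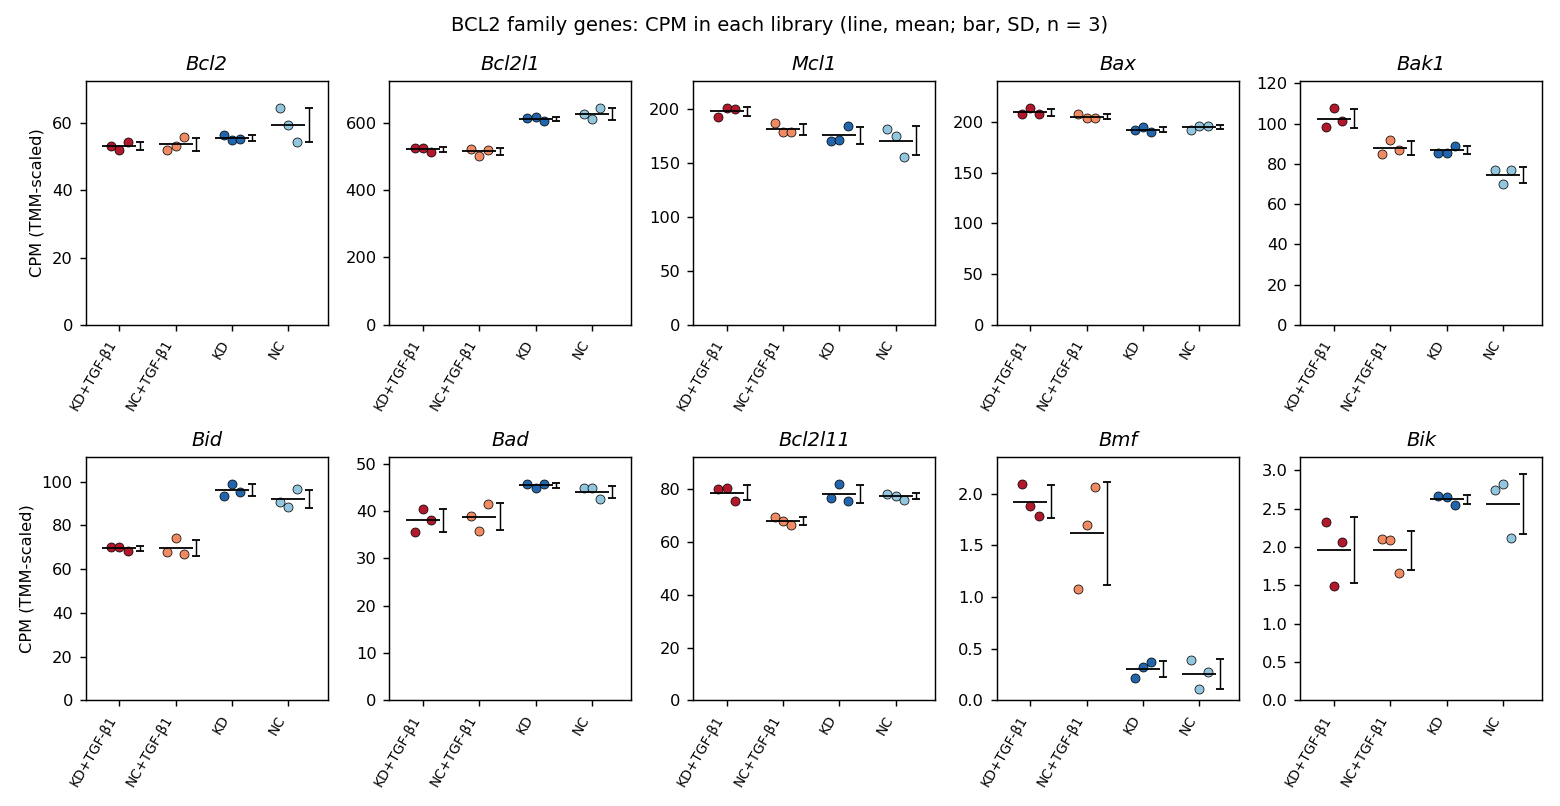
CPM of each of the 10 genes in every library, with group means (lines) and SD (bars, n = 3), in the order KD+TGF-β1, NC+TGF-β1, KD and NC; axes start at 0. Bak1 is lowest in NC and highest in KD+TGF-β1 libraries, Bcl2l11 is lowest in NC+TGF-β1 libraries, and Bmf is near 0 without TGF-β1.

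Promoter windows are shown for the members whose changes the comparisons turn on: Bak1 and Bcl2l11, called higher with silencing under TGF-β1, and Bid, with the largest fall under TGF-β1. The windows run from 250 bases before to 50 after the annotated start, in RefSeq's annotation of GRCm38.p6 (9 of the 10 genes matched, with 15 windows), and are written 5′ to 3′ on the gene's strand. Capitals mark matches on either strand. The GC box was searched as GGGCGG. The box named for its letters, CCAAT, and the FOXO site, searched as GTAAACA, were the others found in these windows. The Bak1 window is chr17:27028578-27028877, minus strand. The Bcl2l11 window, the first of its pair, is chr2:128125788-128126087, plus strand. The Bid window is chr6:120916775-120917074, minus strand.
Bak1: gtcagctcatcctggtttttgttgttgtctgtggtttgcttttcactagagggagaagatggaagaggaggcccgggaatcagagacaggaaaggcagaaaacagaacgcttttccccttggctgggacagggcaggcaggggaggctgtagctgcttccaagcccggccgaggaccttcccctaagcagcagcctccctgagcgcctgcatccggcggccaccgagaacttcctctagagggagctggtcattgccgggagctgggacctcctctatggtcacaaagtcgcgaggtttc
Bcl2l11: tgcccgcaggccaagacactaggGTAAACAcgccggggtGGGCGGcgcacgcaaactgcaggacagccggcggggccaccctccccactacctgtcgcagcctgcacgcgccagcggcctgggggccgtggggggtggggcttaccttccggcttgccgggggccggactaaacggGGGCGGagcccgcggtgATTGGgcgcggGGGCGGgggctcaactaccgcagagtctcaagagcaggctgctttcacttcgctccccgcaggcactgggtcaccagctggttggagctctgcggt
Bid: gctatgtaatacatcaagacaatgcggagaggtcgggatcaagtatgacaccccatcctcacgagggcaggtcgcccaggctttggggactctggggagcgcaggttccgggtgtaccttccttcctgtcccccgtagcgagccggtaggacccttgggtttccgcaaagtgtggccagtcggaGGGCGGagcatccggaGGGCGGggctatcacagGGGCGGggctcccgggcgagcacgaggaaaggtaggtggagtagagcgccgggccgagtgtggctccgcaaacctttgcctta

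The Bak1 window held no match, and the Bid window held 3 GC boxes. The Bcl2l11 window shown held 3 GC boxes, 1 match to CCAAT and 1 FOXO site. The second Bcl2l11 window, which is not shown, held 3 GC boxes, 2 matches to CCAAT and 0 FOXO sites. GC boxes were in 8 of the 15 member windows, against 35.7% of all 32851 windows. CCAAT was in 5 of 15, against 37.4%, and the FOXO letters were in 1 of 15, against 3.65%. The cAMP response element TGACGTCA (1.79% of all windows), the AP-1 site TGACTCA (5.20%), the C/EBP-ATF element TGATGCAA (0.895%) and the SMAD element GTCTAGAC (0.213%) were in 0 of the 15. These matches describe letters in the windows only.

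TGF-β1 libraries differed from basal ones in most of the family. Both effectors were higher, and the survival gene Bcl2l1 and 2 BH3-only genes lower, in control and silenced cells alike. The call of Bax in NC cells was lost in 4 of 12 alternative fits, and that of Bad in 3 of 12. In NC cells 3 of the 10 were called higher and 5 lower, against 64.2% of all genes called (29.4% higher and 34.7% lower). In KD cells 4 were called higher and 3 lower, against 65.1% of all genes (31.4% higher and 33.7% lower). These shares are near the background, so the number of members called is not a result about the family. Those called higher include Bmf in both cell states, which had to differ once it passed the filter on low counts. The members' median log2 change was -0.17 in NC cells and -0.03 in KD cells, against -0.03 and -0.01 over all genes tested.

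Among survival genes, Bcl2l1 measured 525, 526 and 513 CPM in KD+TGF-β1 libraries, against 616, 616 and 604 CPM in KD libraries. In control cells it measured 522, 502 and 521 CPM in NC+TGF-β1 libraries, against 626, 610 and 644 CPM in NC libraries. Every TGF-β1 library was below every basal one. The log2 change was -0.23 (SE 0.03, edgeR adjusted p = 4.89e-06) in KD cells and -0.28 (SE 0.03, edgeR adjusted p = 6.58e-07) in NC cells, folds of 0.852 and 0.822. Mcl1 went the other way in silenced cells, at 198 ± 4.21 CPM in KD+TGF-β1 libraries and 176 ± 7.95 CPM in KD libraries (SD, n = 3 each; log2 0.17, SE 0.05, edgeR adjusted p = 0.00753). In control cells Mcl1 was at 181 ± 4.82 CPM in NC+TGF-β1 libraries and 171 ± 13.4 CPM in NC libraries and was not called (log2 0.08, SE 0.05, edgeR adjusted p = 0.157). Without NC replicate 1 it was called there (log2 0.13, edgeR adjusted p = 0.0214), as it was with size factors (log2 0.11, adjusted p = 0.044). The interaction for Mcl1 was 0.09 on the log2 scale (SE 0.07, edgeR adjusted p = 0.696) and did not pass the threshold.

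Bcl2 measured 52.0, 53.2 and 55.8 CPM in NC+TGF-β1 libraries, against 64.5, 59.4 and 54.4 CPM in NC libraries. These ranges overlapped, and the high value was that of NC library 1. Its fall in NC cells was small (log2 -0.15, SE 0.05, edgeR adjusted p = 0.0287) and was lost without NC replicate 1 (log2 -0.08, adjusted p = 0.149), without NC replicate 2 (0.0598) and without NC+TGF-β1 replicate 1 (0.103) or 2 (0.0731). It was also lost with DESeq2 (adjusted p = 0.118), with size factors, with only the groups compared and with limma on log2(TPM + 1). In all, the call was lost in 8 of 12 alternatives. In KD cells Bcl2 was not called (log2 -0.06, SE 0.05, edgeR adjusted p = 0.328), although by CPM its KD+TGF-β1 libraries all lay below its KD libraries.

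Both effectors were higher with TGF-β1. Bak1 rose by 1.18-fold in KD+TGF-β1 over KD cells (log2 0.24, SE 0.05, edgeR adjusted p = 0.000373) and by 1.18-fold in NC+TGF-β1 over NC cells (log2 0.23, SE 0.05, edgeR adjusted p = 0.000603), with the library values given above. Bax measured 207.7, 213.6 and 207.7 CPM in KD+TGF-β1 libraries, against 192.4, 194.8 and 190.1 CPM in KD libraries. It measured 208.0, 203.8 and 203.6 CPM in NC+TGF-β1 libraries, against 192.5, 196.0 and 195.6 CPM in NC libraries. No TGF-β1 library of Bax reached down to a basal one, and the differences were of a few percent. Bax rose by 1.09-fold in KD cells (log2 0.12, SE 0.03, edgeR adjusted p = 0.001) and by 1.05-fold in NC cells (log2 0.08, SE 0.03, edgeR adjusted p = 0.0239). The NC call was lost without NC replicate 1 (edgeR adjusted p = 0.0788), without NC+TGF-β1 replicate 1 (0.076), with no low-count filter (0.0552) and with only the groups compared (0.0607).

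Among BH3-only genes, Bid, whose product caspase-8 cleaves to link death receptors to mitochondria, measured 70.2, 70.4 and 68.3 CPM in KD+TGF-β1 libraries, against 93.6, 99.0 and 95.3 CPM in KD libraries. It measured 67.8, 74.1 and 67.2 CPM in NC+TGF-β1 libraries, against 90.6, 88.6 and 96.6 CPM in NC libraries. The groups were far apart: Bid fell to 0.725-fold in KD cells (log2 -0.46, SE 0.05, edgeR adjusted p = 5.96e-07) and to 0.758-fold in NC cells (log2 -0.40, SE 0.05, edgeR adjusted p = 2.97e-06). Bad, whose product is held inactive by 14-3-3 proteins when phosphorylated, averaged 38.0 ± 2.47 CPM in KD+TGF-β1 and 45.4 ± 0.514 CPM in KD libraries (SD, n = 3 each; log2 -0.26, SE 0.06, edgeR adjusted p = 0.00119). It averaged 38.8 ± 2.83 CPM in NC+TGF-β1 and 44.1 ± 1.28 CPM in NC libraries (SD, n = 3 each; log2 -0.18, SE 0.06, edgeR adjusted p = 0.0112). That call in NC cells was lost without NC+TGF-β1 replicate 2 (edgeR adjusted p = 0.061) and with DESeq2 (0.0599) or limma on log2(TPM + 1) (0.155).

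Bcl2l11 fell with TGF-β1 in NC cells (fold 0.878, log2 -0.19, SE 0.04, edgeR adjusted p = 0.00112), where every NC+TGF-β1 library was below every NC one. In KD cells its KD+TGF-β1 and KD libraries overlapped and it was not called (log2 0.01, SE 0.04, edgeR adjusted p = 0.823). As given above, the difference between these changes did not pass the threshold. Bmf, whose product is held on a myosin motor complex in healthy cells, had 37, 33 and 31 estimated counts in KD+TGF-β1 libraries, against 4, 6 and 7 in KD libraries. It had 19, 30 and 36 estimated counts in NC+TGF-β1 libraries, against 7, 2 and 5 in NC libraries. Bmf was scarce in all libraries and passed the filter on low counts only through the TGF-β1 libraries, so it had to differ. Its fitted fold was 6.18 (95% interval 3.61 to 10.6) in KD cells and 6.17 (3.45 to 11.02) in NC cells. On the log2(TPM + 1) scale the differences were 0.61 and 0.52. Bik had 41, 26 and 36 estimated counts in KD+TGF-β1 libraries, against 49, 49 and 48 in KD libraries, with a log2 change of -0.42 (SE 0.18) that missed the threshold (edgeR adjusted p = 0.0549). In NC cells Bik had 37, 37 and 29 estimated counts in NC+TGF-β1 libraries, against 49, 52 and 39 in NC libraries (log2 -0.39, SE 0.18, edgeR adjusted p = 0.0771). Bik passed in KD cells without KD+TGF-β1 replicate 1 (log2 -0.56, edgeR adjusted p = 0.0277) and with limma on log2(TPM + 1) (adjusted p = 0.0315), and in NC cells without NC replicate 3 (log2 -0.47, edgeR adjusted p = 0.0451). In both cell states the Bik libraries did not overlap, and its counts were among the lowest of the family.

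**Figure D3:**
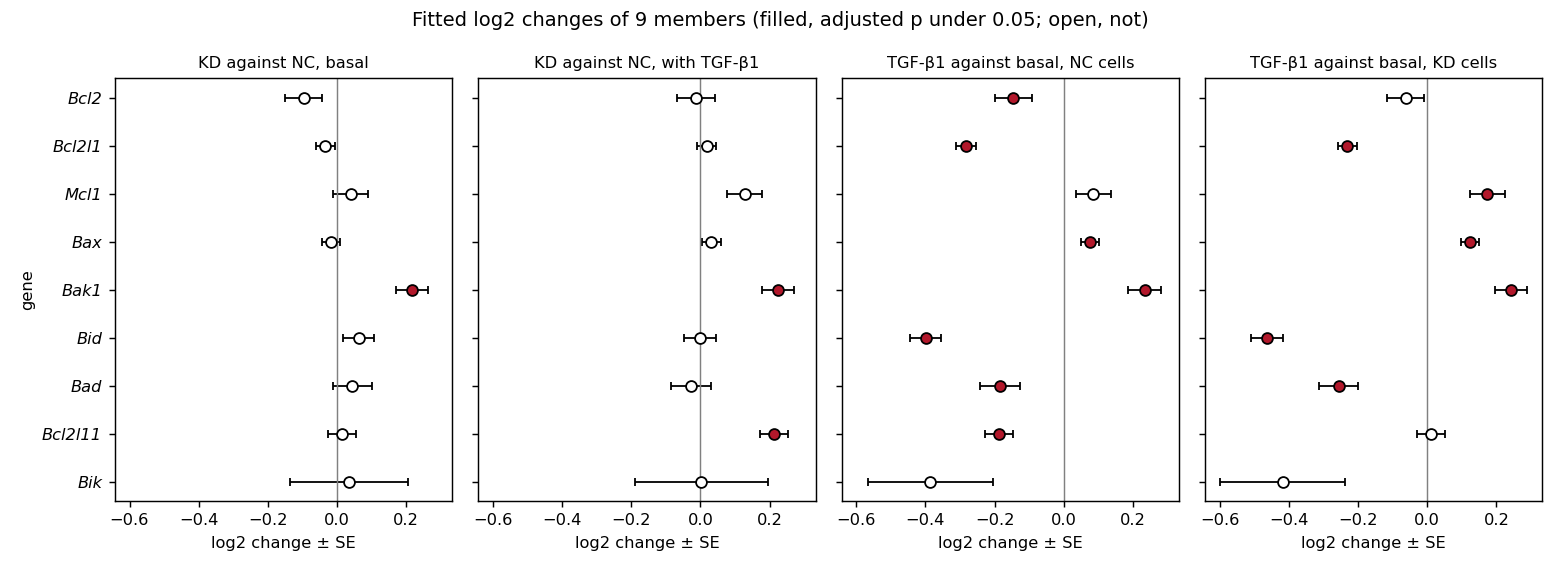
Fitted log2 changes (points) with their SE (bars) for 9 of the genes in 4 comparisons, filled where the adjusted p was under 0.05; Bmf is left out because its log2 changes with TGF-β1 (2.63 and 2.62) are off the scale. Bak1 is right of 0 and filled in all 4 panels, and Bid and Bcl2l1 lie left of 0 in both TGF-β1 panels.

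The interaction test asked whether the response to TGF-β1 differed between silenced and control cells. Fh1 itself had an interaction of -0.98 on the log2 scale (SE 0.07, edgeR adjusted p = 8.18e-06). An interaction therefore cannot be told apart from an effect of deeper silencing with TGF-β1. The test called 0 of the 10 genes by edgeR's quasi-likelihood test, against 0.888% of all genes (0.470% higher and 0.419% lower). Of the 10, 1 gene, Bcl2l11, had an unadjusted p under 0.05. DESeq2 and limma on log2(TPM + 1) also called 0. For Bak1 the interaction was 0.01 on the log2 scale (SE 0.07, 95% interval of the fold 0.905 to 1.118), with a sign that changed with the scaling.

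Ratios of effector to survival transcripts were compared by TPM within each library, over 12 comparisons. Bax to Bcl2, the ratio most often quoted for apoptotic readiness, was 43.4, 48.3 and 43.4 in KD+TGF-β1, 43.8, 44.0 and 40.8 in NC+TGF-β1, 39.1, 42.2 and 41.0 in KD, and 36.3, 39.4 and 42.9 in NC libraries. Silenced and control libraries overlapped in both settings (two-sided exact permutation p = 0.6 with TGF-β1 and 0.7 in basal cells). Between KD+TGF-β1 and KD libraries the ratio differed by 1.10-fold with no overlap (exact permutation p = 0.1, the smallest that 3 against 3 libraries allow), and between NC+TGF-β1 and NC libraries by 1.09-fold with overlap (exact permutation p = 0.2). By estimated counts in place of TPM the comparison in NC cells gave 1.16-fold with no overlap. Its log2 difference by TPM, 0.12, was 0.06 without NC replicate 1 and 0.18 without NC replicate 3. That between KD and NC libraries, 0.05, was -0.01 without NC replicate 1 and 0.11 without NC replicate 3, so it has no stable sign. With 1 library left out, the difference ran from 0.02 to 0.10 between KD+TGF-β1 and NC+TGF-β1 libraries and from 0.09 to 0.17 between KD+TGF-β1 and KD libraries.

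Bak1 to Bcl2l1 was 0.246, 0.269 and 0.260 in KD+TGF-β1, 0.213, 0.240 and 0.219 in NC+TGF-β1, 0.182, 0.182 and 0.193 in KD, and 0.162, 0.152 and 0.156 in NC libraries. The 4 groups did not overlap in any of the 4 comparisons (exact permutation p = 0.1 in each, the smallest possible). The geometric means differed by 1.16-fold between KD+TGF-β1 and NC+TGF-β1, 1.19-fold between KD and NC, 1.39-fold between KD+TGF-β1 and KD, and 1.43-fold between NC+TGF-β1 and NC. The sum of Bax and Bak1 over the sum of Bcl2, Bcl2l1 and Mcl1 was 1.40, 1.44 and 1.42 in KD+TGF-β1, 1.37, 1.45 and 1.37 in NC+TGF-β1, 1.17, 1.18 and 1.17 in KD, and 1.13, 1.15 and 1.15 in NC libraries. It was 1.21-fold higher with TGF-β1 in KD cells and 1.22-fold higher in NC cells, and 1.01-fold higher in KD+TGF-β1 over NC+TGF-β1 cells with overlap (exact permutation p = 0.6). In KD over NC cells it was 1.02-fold higher with no overlap (exact permutation p = 0.1). With 12 comparisons and a smallest p of 0.1, none of these ratios can pass a threshold of 0.05.

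**Figure D4:**
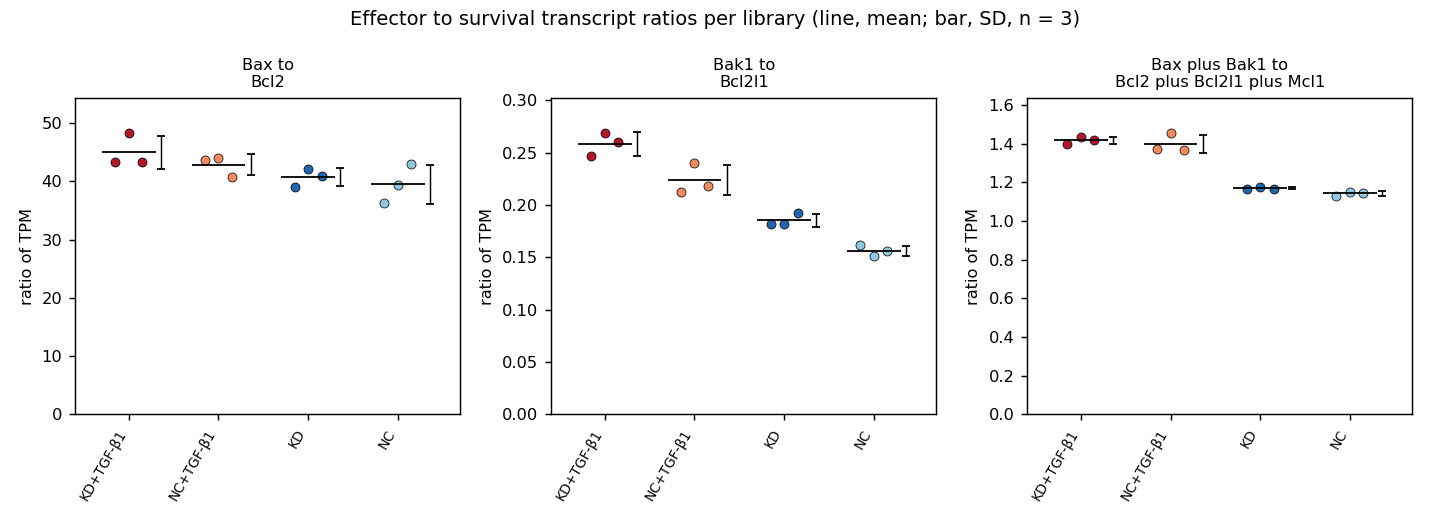
Ratios of TPM in each library for Bax to Bcl2, Bak1 to Bcl2l1 and the summed effectors to the summed survival genes, with group means (lines) and SD (bars, n = 3). Bak1 to Bcl2l1 is highest in KD+TGF-β1 and lowest in NC libraries, and the summed ratio parts TGF-β1 from basal libraries.

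Most members were carried by 1 transcript. Bak1 was listed with 1 transcript, NM_007527 held 92.8% to 95.1% of Bax TPM over the 12 libraries, NM_008562 held 99.7% to 99.9% of Mcl1, and NM_007544 held 92.7% to 96.9% of Bid. Bad had transcripts that moved apart between TGF-β1 and basal libraries. Its transcript NM_007522 was at 11.7, 10.9 and 12.0 TPM in KD+TGF-β1 libraries, against 18.46, 18.82 and 21.87 TPM in KD libraries. The same transcript was at 10.6, 10.4 and 12.2 TPM in NC+TGF-β1 libraries, against 20.4, 19.9 and 19.4 TPM in NC libraries. The other Bad transcript, NM_001285453, averaged 69.2 ± 6.08 TPM in KD+TGF-β1 and 73.1 ± 2.72 TPM in KD libraries, and 71.5 ± 5.05 TPM in NC+TGF-β1 and 68.3 ± 2.95 TPM in NC libraries (SD, n = 3 each). The share of NM_007522 in Bad thus did not overlap between TGF-β1 libraries (12.6% to 15.5%) and basal ones (19.7% to 23.8%). Reads shared by the transcripts are divided by estimation, and no test was run on these values.

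Bid, Bcl2l1 and Bmf were taken for a search of genes with a similar pattern, as the members with the largest fitted log2 changes among those called, although Bmf had to differ once it passed the filter. The search was by Pearson's r of log2(CPM + 0.1) over the 12 libraries. Genes with predicted or clone names, or with no symbol, were left out, so a gene left out may be closer. The closest to Bid were Polr2e (r = 0.990), Usp30 (0.989) and Melk (0.989). The closest to Bcl2l1 were Tfam, Cutal and Hps4 (r = 0.994 each), and to Bmf Rbm12 (0.985), Arhgap17 (0.984) and Rab11fip4 (0.981). The 12 points fall into TGF-β1 and basal libraries from separate tables, which these correlations share, so they describe likeness only.

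The wider apoptotic network was followed in 65 partner genes in 4 lists, of which 58 were tested. In KD over NC cells 0 partners were called higher and 1 lower, against 1.44% and 2.22% of all genes tested. The partner called was the transcription factor gene Foxo3, at 74.5 CPM in KD and 83.8 CPM in NC libraries on average (log2 -0.17, SE 0.04, edgeR adjusted p = 0.0459). That call was lost when any 1 of the 6 libraries compared was left out, and with size factors, no low-count filter, only the groups compared, DESeq2 or limma. Without NC replicate 1, 3 other partners were called higher. In the lists with none called, the smallest p-values were those of Htra2 (log2 0.15, SE 0.04, edgeR adjusted p = 0.0778), Cflar (log2 0.14, SE 0.04, adjusted p = 0.0979) and Bnip3l (log2 -0.08, SE 0.04, adjusted p = 0.406). With TGF-β1, 6 partners were called higher and 2 lower in KD over NC cells, near the background of 11.4%. The median log2 change of the 58 was 0.00 in both settings, against -0.01 and 0.00 over all genes tested.

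The partners called with silencing under TGF-β1 included genes of both directions of death control. Pmaip1, which encodes the BH3-only protein NOXA that targets MCL1, averaged 145 CPM in KD+TGF-β1 and 118 CPM in NC+TGF-β1 libraries (log2 0.30, SE 0.08, edgeR adjusted p = 0.0259). Ddit3, which encodes CHOP, a stress factor known to induce Bcl2l11, averaged 15.2 CPM in KD+TGF-β1 and 11.8 CPM in NC+TGF-β1 libraries (log2 0.36, SE 0.08, edgeR adjusted p = 0.00759). Mdm2, the ubiquitin ligase of p53, rose by 0.14 (SE 0.03, edgeR adjusted p = 0.0047), and Cflar, which encodes the caspase-8 inhibitor FLIP, rose by 0.17 (SE 0.04, adjusted p = 0.0179). Vdac3, a channel of the outer mitochondrial membrane, rose by 0.11 (SE 0.03, edgeR adjusted p = 0.0232). Birc5, which encodes survivin, fell by 0.15 (SE 0.04, edgeR adjusted p = 0.0432), and Ywhaz, a 14-3-3 gene, fell by 0.12 (SE 0.03, adjusted p = 0.014). The 12 caspase and apoptosome genes had 0 called by edgeR and 1 with an unadjusted p under 0.05. Between 3 and 6 partners were called when 1 library of the 6 compared was left out, and 5 with DESeq2.

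With TGF-β1, 25 partners were called higher and 13 lower in KD cells and 22 higher and 14 lower in NC cells, again near the background. Among caspase and apoptosome genes (12 tested), 4 rose and 3 fell in KD cells and 2 rose and 3 fell in NC cells, against 65.1% and 64.2% of all genes called. Casp2 rose by 0.45 in KD and 0.32 in NC cells on the log2 scale. Casp6, an executioner caspase gene, averaged 34.2 CPM in KD+TGF-β1 and 17.1 CPM in KD libraries (log2 0.998, SE 0.06, edgeR adjusted p = 7.3e-09), and 37.0 CPM in NC+TGF-β1 and 17.2 CPM in NC libraries (log2 1.11, SE 0.06, adjusted p = 2.24e-09). Htra2 and Diablo, whose products leave mitochondria and block caspase inhibitors, both fell, Htra2 by 0.72 in KD and 0.56 in NC cells and Diablo by 0.36 and 0.30 on the log2 scale.

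Of the other BCL2 proteins and BCL2 interactors (11 tested of 17 listed), 4 rose and 2 fell in each cell state. Over all genes tested, 65.1% were called in either direction in KD cells and 64.2% in NC cells. Bnip3, a mitophagy receptor gene, fell by 1.13 (SE 0.07, edgeR adjusted p = 4.57e-09) in KD cells and by 1.15 (SE 0.07, adjusted p = 3.71e-09) in NC cells on the log2 scale, and its relative Bnip3l fell by 0.42 and 0.50. Bnip2 rose by 0.64 in KD and 0.59 in NC cells, Bok, an effector-like gene, by 0.36 and 0.40, and Pmaip1 by 0.59 and 0.35. Of the caspase inhibitors and death receptors (12 tested of 13), 2 rose and 4 fell in KD cells and 1 rose and 4 fell in NC cells, against the same 65.1% and 64.2% of all genes. Birc5 fell by 0.60 in KD and 0.54 in NC cells, and Tnfrsf1a, a TNF receptor gene, fell by 0.58 and 0.61. Tnfrsf21, a death receptor gene, fell by 0.32 in KD and 0.44 in NC cells, and Fadd, the adaptor of death receptors, fell by 0.39 and 0.35.

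Regulators and anchors of the members (23 tested) had 15 called higher and 4 lower in KD cells, against 31.4% and 33.7% of all genes, and 15 higher and 5 lower in NC cells, against 29.4% and 34.7%. The list was chosen with earlier results known, and no test was run on it. Their median log2 change was 0.24 in KD cells and 0.16 in NC cells, against -0.01 and -0.03 over all genes tested. Itpr3, a calcium release channel of the endoplasmic reticulum bound by BCL2 proteins, averaged 518 CPM in KD+TGF-β1 and 226 CPM in KD libraries (log2 1.20, SE 0.03, edgeR adjusted p = 2.04e-13), and 487 CPM in NC+TGF-β1 and 225 CPM in NC libraries (log2 1.11, SE 0.03, adjusted p = 4.48e-13). Dynll1, the dynein light chain gene that anchors BIM in healthy cells, rose by 0.53 in KD and 0.60 in NC cells, Foxo1 by 0.68 and 0.62, and Ywhaz by 0.38 and 0.41, while Ddit3 fell by 1.04 in KD and 1.39 in NC cells.

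**Figure D5:**
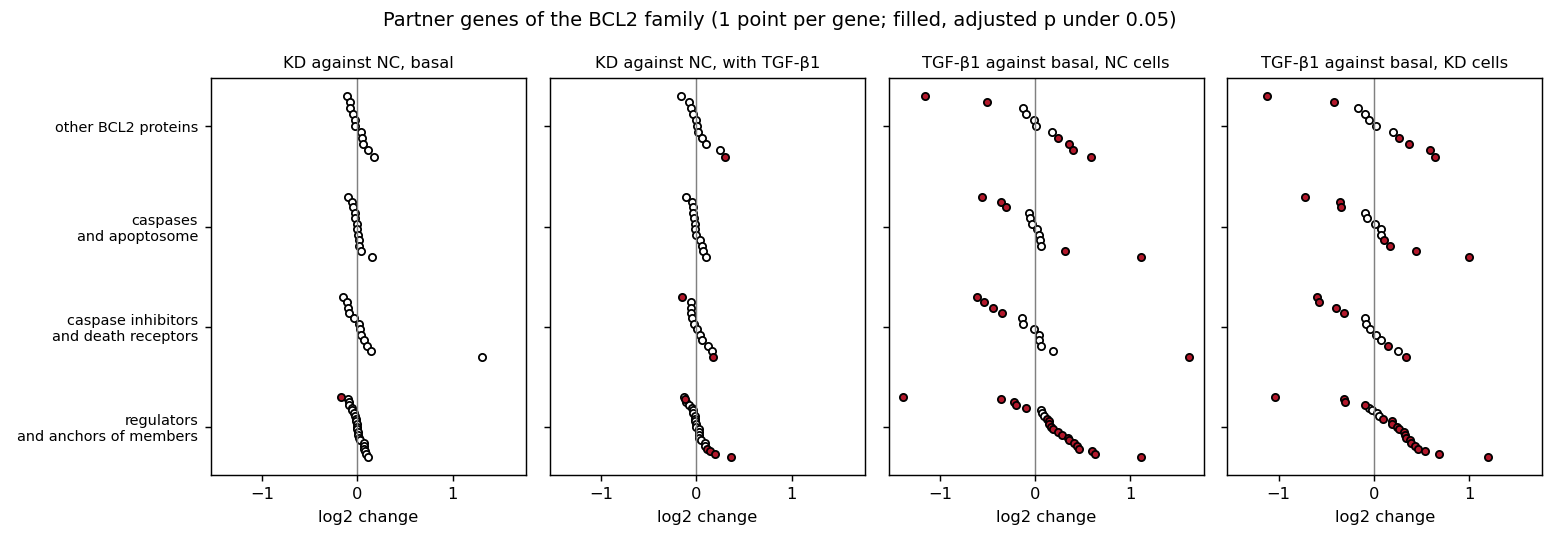
Log2 changes of the 58 tested partner genes in 4 lists (rows) and 4 comparisons (panels), 1 point per gene, filled where the adjusted p was under 0.05. The silencing panels hold few filled points and lie between -0.17 and 0.36, but for 1 scarce gene, Fas, that was not called (log2 1.31 in basal cells), and the TGF-β1 panels spread to beyond 1 in both directions.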

How the data were processed

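The authors deposited 2 transcript tables, 1 of the basal and 1 of the TGF-β1 libraries, with Entrez gene IDs. Per the file headers and values, they hold estimated counts, and the deposited TPM are already scaled per library. Per the submitters' processing notes, the tools were Bowtie2, HISAT2, DESeq2 1.34.0 and RSEM 1.3.1, with no role given for any, and the build was hg38, a human one; no coordinates were therefore taken from the tables. Names follow RefSeq's table of GRCm38.p6.

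For the 15802 genes in both tables, transcripts were summed per gene, and the estimated counts were then rounded. edgeR 4.0.16 (R 4.3.3) was run with TMM factors of 0.978 to 1.02, its default low-count filter (minimum 10), 1 coefficient per group over 12 libraries, quasi-likelihood F-tests and Benjamini-Hochberg adjustment over 11707 genes. The biological coefficient of variation was 4.6%. Each SE of a log2 change comes from the fit. Ratios were compared by exact permutation tests. The fit was tested on simulated data for the silencing comparisons only, not for those of TGF-β1 or the interaction. Alternatives used limma 3.58.1, DESeq2 1.42.0, other settings and each library left out in turn.

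Members and lists were chosen with earlier results of these data known. Named partners are, per list and comparison, up to 4 called genes with the smallest p, or 1 where none was called; 1 gene that this rule takes is not reported here. Replicates of each group differed by more than sampling noise (chi-square per gene 1.68 to 13.7, the highest between NC replicates 1 and 3).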

Additional observations from a re-analysis of the deposited data

Results flagged for a closer look

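Of the 10 members and 58 partners tested, 1 gene passed the interaction test, against 0.888% of all genes tested. That test asked whether the response to TGF-β1 differed between silenced and control cells. By count, 1 call in so many genes is near that share. Vdac3, a channel gene of the outer mitochondrial membrane, averaged 211.7 CPM in KD+TGF-β1 and 195.6 CPM in NC+TGF-β1 libraries, and 169.1 CPM in KD and 179.5 CPM in NC libraries. The interaction was 0.1995 on the log2 scale (SE 0.04, edgeR adjusted p = 0.0438). Silencing of Fh1 was deeper with TGF-β1, and the part of that depth in this interaction cannot be told apart. With size factors, with no low-count filter, with DESeq2 and in the fits that left out 1 library, other than the one without NC replicate 1, 0 partners were called by this test. In the other lists the smallest interaction p-values were those of Birc2 (log2 0.28, edgeR adjusted p = 0.215), Htra2 (log2 -0.16, adjusted p = 0.329) and Pmaip1 (log2 0.24, adjusted p = 0.457).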

How the results depend on the processing

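Of 18 member changes called, 14 were called under all their alternatives and 0 reversed. Both counts include the Bmf calls with TGF-β1, which had to differ once Bmf passed the filter. Of 32 not called, 28 were called in none. Members called in KD over NC cells numbered 1, and 0 with only the groups compared (0 to 1 with 1 library left out). Partners called there numbered 1, and 0 with size factors, no low-count filter, only the groups compared, DESeq2 and limma (0 to 3 with 1 left out). With TGF-β1 they numbered 8, and 5 with DESeq2 (3 to 6). For the interaction they numbered 1, and 0 with size factors, no filter and DESeq2 (0 to 1). Over all genes, DESeq2 called 871 with silencing under TGF-β1, against 1340.

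Same-numbered libraries deviated with correlations of -0.105 to 0.0728. The labels state no pairing, and values this small cannot tell whether such libraries share more than a number. With replicate number as a block, the interaction called 54 genes, against 104 without it, and 0 partners; members called stayed at 1, 2, 8, 7 and 0 by count in the 5 comparisons.

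The log2 difference of Bax to Bcl2 with TGF-β1 in NC cells was 0.12 by TPM and 0.22 by estimated counts. Taking Bak1 to Bcl2l1 in its place gave 0.25 (KD over NC), 0.21 (with TGF-β1), 0.52 (TGF-β1 in NC cells) and 0.48 (in KD cells), and the summed ratio gave 0.29 in NC and 0.28 in KD cells.

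Log2 changes that reversed were all uncalled, and the cause was not tested. Limma gave 0.00031 for Bax in KD over NC cells, and, with TGF-β1, 0.0068 for Bid and -0.023 for Bik. For the interaction of Bak1 limma gave -2.6e-05, size factors -0.0054 and DESeq2 -0.0054, and for that of Bmf size factors gave -0.011 and DESeq2 -0.016. With 1 library left out, KD over NC ran from -0.052 to 0.011 for Bcl2l1, -0.026 to 0.010 for Bax, -0.023 to 0.038 for Bcl2l11, -0.11 to 0.66 for Bmf and -0.063 to 0.11 for Bik. With TGF-β1 it ran from -0.036 to 0.017 for Bcl2, -0.00018 to 0.029 for Bcl2l1, -0.027 to 0.045 for Bid, -0.081 to 0.024 for Bad and -0.14 to 0.17 for Bik. TGF-β1 in KD cells ran from -0.013 to 0.048 for Bcl2l11. The interaction ran from -0.037 to 0.051 for Bak1, -0.41 to 0.36 for Bmf and -0.17 to 0.13 for Bik. Depth limits Bmf and Bik, with at most 52 estimated counts in a library.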

Other observations

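Bcl2 was listed with a pair of transcripts. The minor one, NM_177410, held 8.52 ± 3.50% of Bcl2 TPM in KD+TGF-β1, 10.96 ± 1.13% in NC+TGF-β1, 7.47 ± 2.56% in KD and 4.42 ± 1.85% in NC libraries (SD, n = 3 each). Bcl2l11 was spread over 9 listed transcripts, of which NM_207680 held 49.7 ± 5.45%, 54.1 ± 2.36%, 53.0 ± 3.21% and 46.3 ± 5.03% in the same order of groups (SD, n = 3 each). Bcl2l1 was spread over 8, and NM_001289717 averaged 12.3 ± 1.12 TPM in KD+TGF-β1, 12.9 ± 0.532 in NC+TGF-β1, 23.7 ± 5.03 in KD and 22.9 ± 7.40 in NC libraries (SD, n = 3 each). No test was run on these values, which are estimates for overlapping transcripts.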
